A study of Mus musculus with 6 samples.

Results

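Mammary glands of late pregnant mice were compared with glands of virgin mice across 11495 genes. The comparison used 4 of the 6 arrays of a series on Brca1, a DNA repair gene, and the 4 were chosen by the stage in their labels. Each array held total RNA from the mammary glands of 1 female of a mixed 129/FVB/Black Swiss background. The pregnant mice were 5 months old and at day 16.5 of gestation, and both carried a Cre recombinase gene under the MMTV promoter. The control among them was Brca1 +/co/MMTV-Cre and the mutant Brca1 co/co/MMTV-Cre, where co stands for a conditional allele. The virgin pair was 6 months old, and both of its mice were p53+/-. Its control was labelled Brca1 D+/+;p53+/- and its mutant Brca1 D11/D11;p53+/-. A lactating pair, taken on day 1 of lactation at 2 months, entered the fit for the spread and the genotype term. Its array titles carry an earlier date than those of the 4 compared arrays. The added spike-in RNA dap read 6.2 (lactating mutant) and 3.8 (lactating control), against 23920 to 36990 on the compared arrays. On the 4 compared arrays alone 2759 genes passed (limma adjusted p under 0.05), against 1690 with the lactating pair in the fit. What part of this comes from these differences was not tested. The design is balanced, so within the fit the lactating pair bears on a ratio only where an array was left out. Before the fit, it also entered the choice of probe set for each gene, the pseudocount and the filter on dim genes. MMTV-driven Cre acts only in cells where that promoter is active, so the other cells of those glands keep their Brca1 alleles. The labels name no p53 allele for the pregnant pair, and the series' design text gives the D11 genotype to all mutants. The sample labels were followed. Stage thus goes with the type of Brca1 allele, the Cre gene, the p53 allele and age, and these cannot be told apart. Inherited differences between mice of the mixed background cannot be told apart from stage either. Each stage and genotype had 1 mouse, so the spread between like mice was not measured. The spread behind every p-value is how far the mutant-control difference varied between stages, with information shared across genes. It includes any effect of genotype that differs between stages.

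As background, the virgin gland is a tree of epithelial ducts in a pad of fat cells, fibroblasts, vessels and immune cells. A subset of luminal cells carries the receptors for oestrogen and progesterone and signals to its neighbours through secreted factors. In pregnancy, progesterone and prolactin drive the growth of alveoli, prolactin acts through Stat5 and Elf5 on the secretory cells, and the alveoli displace much of the fat. Myoepithelial cells, which contract at suckling, line the ducts and alveoli from outside.

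The deposited values were MAS5 signal intensities, already scaled to 1 trimmed mean of 500 on every array. The median signal was 148 (pregnant control), 158 (pregnant mutant), 120 (virgin control) and 139 (virgin mutant). Epcam, a surface protein of epithelial cells, read 11874 (pregnant control), 8457 (pregnant mutant), 9679 (virgin control) and 9991 (virgin mutant), and the fat cell hormone gene Adipoq read 27028 (pregnant control), 19174 (pregnant mutant), 30648 (virgin control) and 35013 (virgin mutant), so both tissue parts were present on every array. Brca1 read 159, 288, 137 and 487 in the same order. Where its probe set lies relative to the mutated part is not stated in the labels or files, so its signal does not check the genotypes. The ratio of 3′ to 5′ signal, which rises as RNA degrades or is copied less fully, was for beta-actin 1.37 (pregnant control), 1.43 (pregnant mutant), 2.74 (virgin control) and 2.04 (virgin mutant). For the added spike-in RNA dap it was 1.73, 1.58, 6.04 and 3.31 in the same order. The pregnant arrays had the lower ratio for all 6 of the transcripts labelled with the sample, and the virgin control had the highest. For the hybridisation controls bioB and cre, which are added after labelling, the 4 arrays lay between 1.10 and 1.46. The part of this difference in the results below was not tested.

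**Figure D1:**
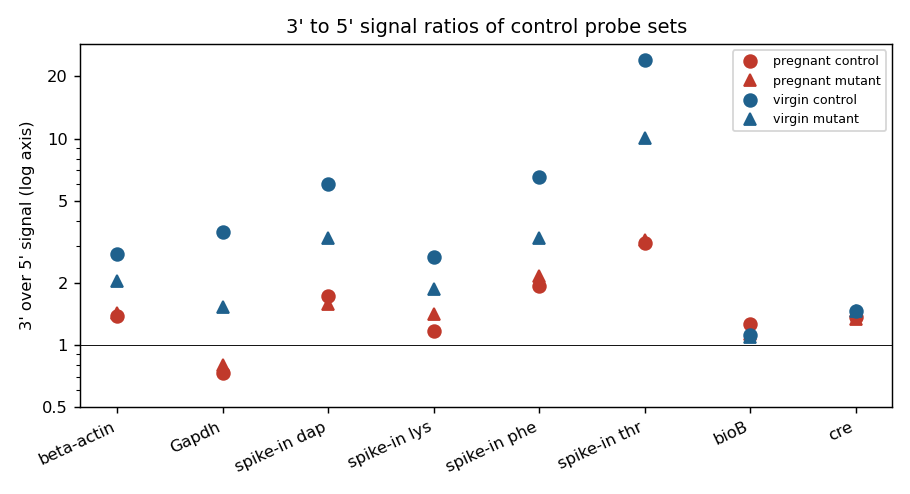
Ratio of 3′ to 5′ MAS5 signal (log axis) for beta-actin, Gapdh, 4 spike-in transcripts and 2 hybridisation controls, with 1 point per array. For beta-actin the pregnant arrays lie at 1.37 and 1.43 and the virgin arrays at 2.74 and 2.04, and only bioB and cre lie close together on all 4 arrays.

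Pregnant and virgin glands differed in 1690 of the 11495 genes tested, or 14.7%, of which 741 (6.45%) were higher and 949 (8.26%) lower in the pregnant glands (limma, adjusted p under 0.05, 2 arrays per stage). A log2 ratio here is the mean of the 2 pregnant arrays minus that of the 2 virgin arrays on the log2(signal + 52.1) scale, which understates the change of dim genes, and it is given with its SE. The median log2 ratio over all genes tested was -0.06. Among the called genes 146 were higher and 63 lower by at least 2 log2 units, and 46 were higher and 5 lower by at least 3. In all 1690 the pregnant arrays lay on 1 side of both virgin arrays, as they did in 64.6% of the genes tested. It follows from this separation that the log2 ratio between the controls and that between the mutants had the same sign in all 1690. Across the 11495 genes the ratios correlated at r = 0.754, where genes are not independent replicates. No gene had ratios of at least 2 log2 units with opposite signs in the 2 genotypes.

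The split of the calls depended on scaling. Higher genes made up 43.8% of the calls as deposited, 26.5% after centring on array medians (511 higher, 1417 lower, median ratio of all genes -0.24), and 57.9% when each gene's probe sets were averaged (689 higher, 501 lower). With the spike-in RNAs as the common level, on the 4 arrays alone, it was 8.27% (357 higher, 3961 lower, median of all genes -0.60). The same 4 arrays as deposited gave 40.4% (1116 higher, 1643 lower). A single array also moved the counts: 318 genes passed without the pregnant control, 774 without the pregnant mutant, 304 without the virgin control and 825 without the virgin mutant, and 225 of the 1690 were called with each array left out in turn. Where a list's calls are given below with 1 array left out, the 4 counts stand in that order. Leaving out an array cut the residual degrees of freedom from 2 to 1 and left 1 stage with 1 array. A call can thus be lost with little change in its log2 ratio, but ratios moved as well. Without the pregnant control and without the pregnant mutant, Stat5a had 0.89 and 0.98, against 0.93 with all arrays. Retn had -1.09 and -3.76 in the same order, against -2.42. None of the 1690 changed sign in these 4 fits, but the separation of their arrays given above largely fixed that sign beforehand. Of 715 called genes measured by several bright probe sets, 33.8% had probe sets with ratios of both signs, against 51.8% of 4111 uncalled genes.

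**Figure D2:**
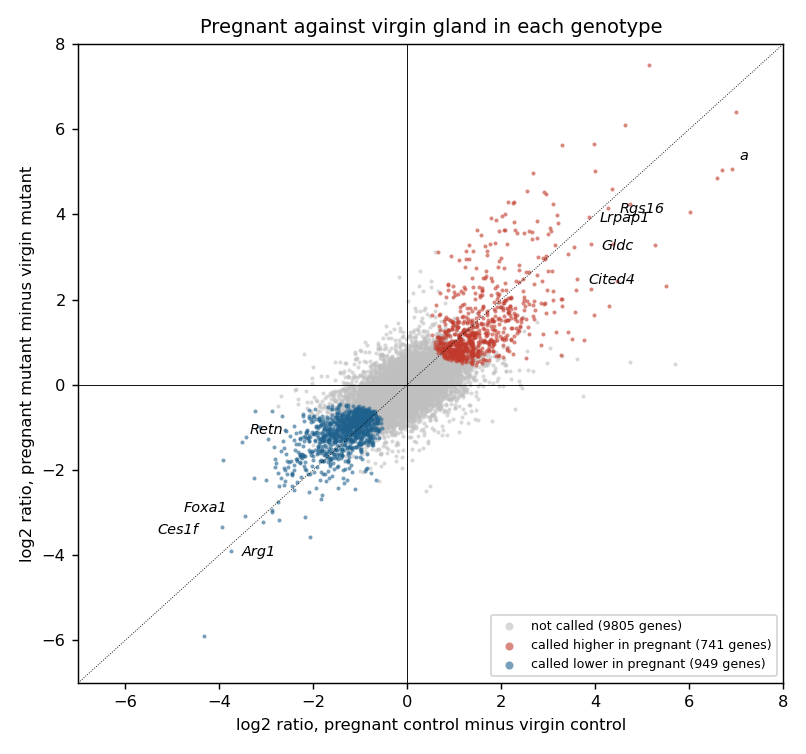
Log2 ratio of pregnant to virgin signal between the 2 mutant arrays against that between the 2 control arrays, 1 point per gene tested. The 741 genes called higher (red) and 949 called lower (blue) lie in the quadrants where both genotypes have the same sign. This follows from their pregnant arrays lying on 1 side of both virgin arrays. The dotted line marks equal ratios.

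Besides the genes of milk, skeletal muscle and lymphocytes, which were followed as separate lists, 673 genes were higher and 914 lower. The milk list had 24 of 31 tested members higher and 1 lower, with a median log2 ratio of 2.10, which sets the scale for the secretory genes below. The 52 skeletal muscle genes tested had 43 higher and none lower, and their summed signal was 358100 and 412320 in pregnant glands against 134560 and 86452 in virgin glands, the control first in each. The T and NK cell list had 1 higher and 13 lower of 23, with summed signals of 6484 and 8587 in pregnant glands and 21002 and 27875 in virgin glands. The B and plasma cell list had 21 lower of 30, with sums of 9160 and 12777 against 28573 and 36196. With 1 array left out the 14 T and NK cell calls became 5, 11, 6 and 7 and the 21 B and plasma cell calls 7, 18, 7 and 7. The part of attached muscle, skin or a lymph node in any result below was not tested. Counts of list members below stand against the 6.45% higher and 8.26% lower of all genes tested. In whole glands, fewer cells of a type and less RNA per cell cannot be told apart.

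Among the 15 genes with the highest log2 ratios outside those lists was a (chr2:154950599-155051012, GRCm38), the agouti gene, whose secreted protein steers hair pigment. It read 15640 (pregnant control), 4868 (pregnant mutant), 78.3 (virgin control) and 94 (virgin mutant). The part of inherited differences between the mice in these signals was not tested. Both pregnant arrays lay far above both virgin arrays, by 5.99 ± 0.41 (limma adjusted p = 0.000855), which is at least 32.9-fold when the dim virgin signals are set to 265. That floor is the 95th percentile of the signals of Y-linked probe sets in these females, and later "at least" folds use it too. Genes under the floor at 1 stage have only such a bound, so their log2 ratios give no order among them. Rgs16 (chr1:153740353-153745468), which ends signalling by G protein-coupled receptors, read 3361 (pregnant control), 3611 (pregnant mutant), 124 (virgin control) and 153 (virgin mutant). Its groups did not overlap, and the log2 ratio was 4.22 ± 0.51 (limma adjusted p = 0.0039), at least 13.1-fold. Gldc (chr19:30098441-30175441), the glycine-splitting subunit of the mitochondrial glycine cleavage system, rose from 144 and 220 in the virgin pair to 2879.9 and 2630.1 in the pregnant pair, by 3.60 ± 0.26 (limma adjusted p = 0.00096, at least 10.4-fold higher). Lrpap1, a chaperone of lipoprotein receptors, was among the brightest, at 21918 and 27515 in pregnant glands and 1460.4 and 1742 in virgin glands, and its log2 ratio was 3.90 ± 0.19 (limma adjusted p = 0.000259). Of its 4 bright probe sets 1 had a ratio of the opposite sign, and the mean of probe sets gave 0.56. The gut and brain peptide gene Cck read 677 and 930 in pregnant glands and 68.8 and 27.9 in virgin glands, and the membrane protease gene Tmprss4 read 3853 and 581 in pregnant glands and 33.5 and 74 in virgin glands. Both were dim in virgin glands, and for Tmprss4 the pregnant control stood well above the pregnant mutant. The bounds were at least 2.99-fold for Cck and at least 5.64-fold for Tmprss4. Among the 15 highest, Trdn, Myom2, Nrap, Ankrd23 and Hspb6 are known from striated muscle, and Myhas is a noncoding RNA of the myosin cluster. Their log2 ratios of 3.10 to 5.36 go with the summed muscle signals above. For the 4 that were dim in virgin glands the bounds were at least 4.15-fold (Ankrd23), 5.68-fold (Myom2), 5.96-fold (Nrap) and 22.0-fold (Myhas). a, Rgs16, Gldc, Lrpap1, Cck, Trdn, Myom2, Nrap, Ankrd23, Hspb6 and Myhas were also called with each of the 4 arrays left out in turn. Tmprss4 lost the call without the pregnant control (limma adjusted p = 0.083), without the virgin control (0.18) and without the virgin mutant (0.062). Tmprss4 lost the call after quantile normalization (limma adjusted p = 0.06) and Lrpap1 with the mean of probe sets (0.092).

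Among the 15 lowest log2 ratios outside those lists was that of Arg1 (chr10:24915207-24927470), which encodes the arginine-splitting enzyme arginase. It read 119 (pregnant control), 48.8 (pregnant mutant), 2267 (virgin control) and 1448 (virgin mutant). The pregnant signals lay within the range of dark probe sets, so the log2 ratio of -3.83 ± 0.48 (limma adjusted p = 0.00418) stands for a level at least 6.83-fold lower. Ces1f, a carboxylesterase of lipid metabolism, read 171 and 207 in pregnant glands and 3379 and 2569 in virgin glands. Its log2 ratio was -3.64 ± 0.38 (limma adjusted p = 0.00265, at least 11.1-fold lower), and neither pregnant array came near the virgin range. Dnm1, a dynamin best known from nerve endings, fell from 737 and 777 in virgin glands to 55.3 and 55.2 in pregnant glands, at least 2.85-fold. Ptn, a secreted growth factor, read 386 and 713 in pregnant glands and 6576 and 2571 in virgin glands, with 1 of its 3 bright probe sets turned the other way. The interferon-inducible gene Ifi27l2a was bright in virgin glands, at 3286 and 1379 in pregnant glands and 13982 and 17004 in virgin glands, and its log2 ratio was -2.82 ± 0.34 (limma adjusted p = 0.00378). Il22ra2, a soluble decoy receptor for interleukin 22, read 118 and 156 in pregnant glands and 1091 and 1341 in virgin glands, at least 4.56-fold lower. Alb, the albumin gene, read 153 and 152 in pregnant glands and 1920.4 and 877 in virgin glands, with the virgin control well above the virgin mutant, and was at least 4.89-fold lower. Slc1a5, a glutamine transporter, fell by 2.44 ± 0.23, from 8377 and 7257 to 1540.1 and 1267. Ighv14-2 and Gimap8 are lymphocyte genes that the lists did not hold, and their log2 ratios of -2.62 and -2.43 go with the summed lymphocyte signals above. For Ighv14-2, dim in pregnant glands, the bound was at least 5.84-fold lower. Arg1, Ces1f, Dnm1, Ptn, Ifi27l2a, Il22ra2, Slc1a5 and Gimap8 were also called with each of the 4 arrays left out in turn. Alb and Ighv14-2 lost the call without the virgin control (limma adjusted p = 0.053 and 0.065).

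**Figure D3:**
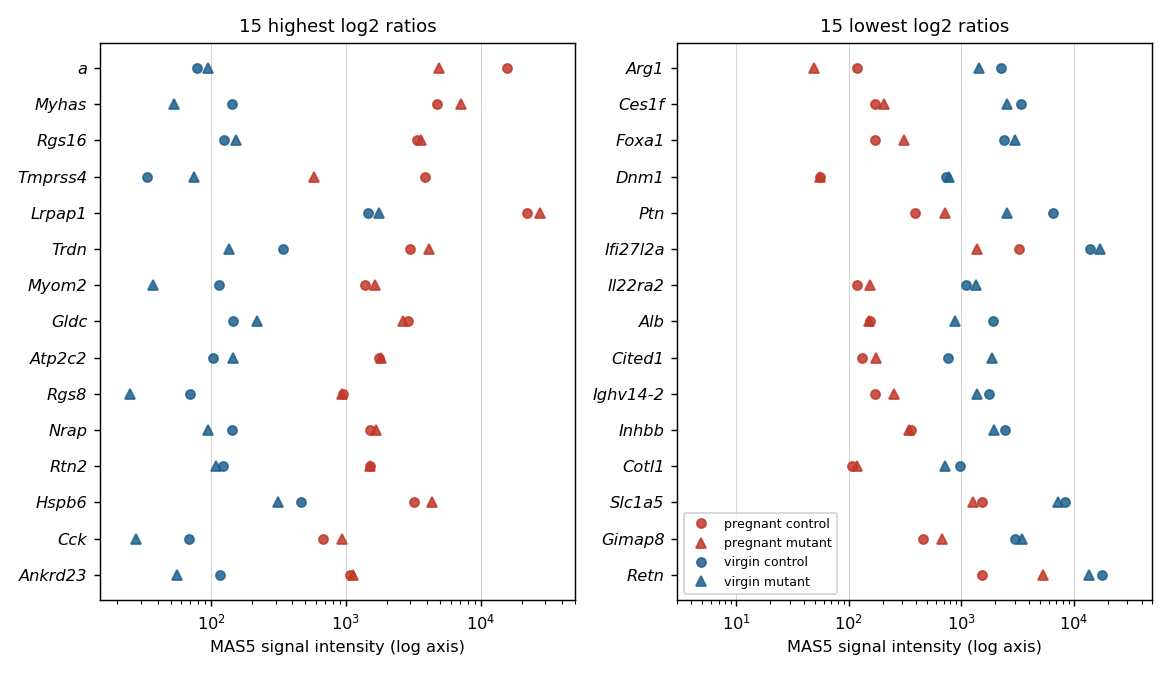
MAS5 signal intensity (log axis) on each of the 4 arrays for the 15 genes with the highest and the 15 with the lowest log2 ratio among called genes outside the milk, muscle and lymphocyte lists. In every row both pregnant arrays (red) lie on 1 side of both virgin arrays (blue), and several genes are near the level of dark probe sets in 1 stage.

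Of 19 genes of hormone-sensing luminal cells tested, 3 rose and 7 fell, with a median log2 ratio of -0.47 against -0.06 over all genes tested. The 10 calls became 3, 6, 3 and 3 with 1 array left out. Foxa1 (chr12:57540628-57548029), a factor that opens chromatin for the oestrogen receptor, read 172 (pregnant control), 310.5 (pregnant mutant), 2385 (virgin control) and 3013 (virgin mutant). Every virgin signal was well above every pregnant signal. Cited1, a transcription coregulator of the same cells, read 130.3 and 174 in pregnant glands and 769 and 1883 in virgin glands, at a log2 ratio of -2.63 ± 0.35 (limma adjusted p = 0.00523, at least 4.54-fold lower). The oestrogen receptor gene Esr1 read 723 and 996 in pregnant glands and 2671 and 1697 in virgin glands, without overlap, and its ratio was -1.28 ± 0.30 (limma adjusted p = 0.03). The progesterone receptor gene Pgr had lower signals in both pregnant arrays, 239 and 347 in pregnant glands and 403 and 439 in virgin glands, but did not pass at -0.47 ± 0.25 (limma adjusted p = 0.24). Of the paracrine factors these cells send out, Tnfsf11 (RANKL) did not pass at -1.36 ± 0.38 (limma adjusted p = 0.0514), and Wnt4 stood at 0.05 ± 0.32 (limma adjusted p = 0.938) with overlapping groups. Tnfrsf11a, the receptor for RANKL, rose from 84.5 and 82.4 to 615 and 419.5, at 2.05 ± 0.24 (limma adjusted p = 0.00374, at least 1.92-fold higher). The coregulator gene Cited4 rose from 199 and 418 in the virgin pair to 3036 and 2595 in the pregnant pair, by 3.06 ± 0.43 (limma adjusted p = 0.00623), and Xbp1, a factor for secretory capacity, by 1.16 ± 0.21 (limma adjusted p = 0.0137). Krt8, a keratin gene of the luminal layer, did not pass, with a log2 ratio of -0.04. Foxa1, Tnfrsf11a and Cited4 were also called with each of the 4 arrays left out in turn. Xbp1 and Esr1 lost the call without the pregnant control (limma adjusted p = 0.072 and 0.26), Xbp1 and Esr1 without the virgin control (0.14 and 0.24). Cited1 and Esr1 lost it without the virgin mutant (0.052 and 0.056). Esr1 lost the call after quantile normalization (limma adjusted p = 0.06), with the mean of probe sets (0.47) and Xbp1 with spike-in scaling (0.051).

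Among genes of Jak-Stat5 signalling and alveolar fate, 7 of 27 rose and 3 fell, and the median was 0.15 at the deposited scaling, -0.03 after median centring and -0.39 with spike-in scaling. The 10 calls became 3, 6, 1 and 7 with 1 array left out. Elf5, the transcription factor of alveolar secretory cells, which is also on the milk list, read 21355 (pregnant control), 16496 (pregnant mutant), 5592 (virgin control) and 6950.4 (virgin mutant). Both pregnant signals exceeded both virgin signals, with a log2 ratio of 1.58 ± 0.22 (limma adjusted p = 0.00618). Stat5a, the factor that prolactin activates, rose from 1898 and 2552 to 3924 and 4609.6, at 0.93 ± 0.18 (limma adjusted p = 0.0173). Cish, an inhibitor whose gene is itself a target of Stat5, rose from 576 and 644 to 2651 and 3182, at 2.16 ± 0.35 (limma adjusted p = 0.00964). Socs2, another such inhibitor, did not pass at 0.24 ± 0.32 (limma adjusted p = 0.65), with overlapping signals. The neural crest and progenitor factor gene Sox10 rose by 1.31 ± 0.18 (limma adjusted p = 0.0062), with 1 of 3 bright probe sets turned the other way, and Ets2, an Ets factor, had a ratio of -1.28 ± 0.18 (limma adjusted p = 0.00618). Ets2, Sox10 and Stat5a lost the call without the pregnant control (limma adjusted p = 0.063 to 0.15), Stat5a without the pregnant mutant (0.084). Ets2, Elf5, Sox10, Cish and Stat5a lost it without the virgin control (0.055 to 0.17), Stat5a without the virgin mutant (0.06). Stat5a lost the call after median centring (limma adjusted p = 0.052) and Sox10 and Stat5a with spike-in scaling (0.094 and 0.39).

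The promoter of Cish is shown because it holds the palindrome that Stat proteins bind, TTCNNNGAA, in 2 copies. The bases shown run from 220 before to 30 after the RefSeq gene start on the plus strand of GRCm38, chr9:107296439-107296688, with the palindromes in capitals.
Cish: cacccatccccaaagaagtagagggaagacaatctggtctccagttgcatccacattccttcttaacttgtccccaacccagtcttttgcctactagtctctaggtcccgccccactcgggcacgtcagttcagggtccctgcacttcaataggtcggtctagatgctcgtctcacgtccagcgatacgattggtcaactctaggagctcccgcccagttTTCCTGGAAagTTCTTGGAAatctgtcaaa
The copies begin 0 and 11 bases after the gene start. Both strands were searched over 250 bases before to 50 after each start, and since the motif is its own reverse complement a match counts once. Of the 9252 tested genes with such a sequence, 8.24% held it. The share was 9.35% among the 588 called higher and 10.1% among the 716 called lower. In the lists it ran from 0% to 29.4%, with 2 of 19 in the Jak-Stat5 list that holds Cish and 6 of 23 in the milk list. A match is a description of the letters and not a bound site.

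Of 29 myoepithelial and basal genes tested, 7 rose and 3 fell, with a median of -0.03. The 10 calls became 1, 6, 1 and 5 with 1 array left out. The contractile genes Cnn1 (calponin) and Actg2 (smooth muscle gamma-actin) rose, with Cnn1 at 2112 and 2020.1 in pregnant glands and 422 and 450.4 in virgin glands and a log2 ratio of 2.12 ± 0.34 (limma adjusted p = 0.0092). Actg2 read 1260 and 919 in pregnant glands and 192 and 299.6 in virgin glands, at 1.95 ± 0.31 (limma adjusted p = 0.00869), and neither gene overlapped between stages. Itga6, the integrin that anchors basal cells to laminin, rose from 3689 and 3873 to 9885 and 8964, at 1.30 ± 0.19 (limma adjusted p = 0.00623). The basal keratin genes Krt5 and Krt14 did not pass, at -0.22 ± 0.25 and 0.24 ± 0.49, and Krt14 spread from 553 in the pregnant mutant to 1629 in the pregnant control. Oxtr, the oxytocin receptor through which these cells contract, was higher in both pregnant arrays but did not pass (0.55 ± 0.22 (limma adjusted p = 0.141)). Vim, an intermediate filament of stromal as well as basal cells, read 9884 and 7983 in pregnant glands and 23220 and 20981 in virgin glands, at -1.31 ± 0.21 (limma adjusted p = 0.00866). Pericyte and vascular smooth muscle genes share the contractile members: 5 of 21 rose and 1 fell, with a median of 0.18, and the 6 calls became 2, 3, 3 and 3. Of their own markers Rgs5 was -1.13 ± 0.19 (limma adjusted p = 0.0109) with 1 of 4 bright probe sets turned the other way and a mean over probe sets of 0.18, and Notch3 did not pass at -0.14 ± 0.19. Cnn1 and Actg2 are not on the skeletal muscle list, which was 43 of 52 higher. The pericyte list shares Des and Casq2 with it. Itga6, Actg2, Cnn1 and Rgs5 lost the call without the pregnant control (limma adjusted p = 0.054 to 0.097), Rgs5 without the pregnant mutant (0.051). Itga6, Actg2, Vim and Rgs5 lost it without the virgin control (0.068 to 0.12). Rgs5 lost the call with the mean of probe sets (limma adjusted p = 0.56) and Itga6 with spike-in scaling (0.064).

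Cell junction genes had 9 of 32 members higher and 3 lower, with a median of 0.30 that turned to -0.24 with spike-in scaling. The 12 calls became 1, 7, 1 and 3 with 1 array left out. Cldn8, a claudin that seals the space between epithelial cells, read 3870.3 (pregnant control), 4116 (pregnant mutant), 402 (virgin control) and 861 (virgin mutant). Both pregnant arrays lay far above both virgin arrays, and the log2 ratio was 2.65 ± 0.50 (limma adjusted p = 0.0158). Cldn7, another claudin, read 4202 and 3389.8 in pregnant glands and 1080.4 and 1599.6 in virgin glands, at 1.48 ± 0.31 (limma adjusted p = 0.0204), and Cldn3 did not pass at 1.25 ± 0.38 (limma adjusted p = 0.0636) although its groups did not overlap. The gap junction gene Gjb6 rose from 1712 and 3304 to 5646 and 10692, at 1.69 ± 0.18 (limma adjusted p = 0.0028). Cdh1, the epithelial cadherin, and Epcam did not pass, at 0.36 ± 0.27 and 0.03 ± 0.27. The lower members included Cdh5, the cadherin of endothelial cells, at -1.56 ± 0.22 (limma adjusted p = 0.00575). Gjb6 was also called with each of the 4 arrays left out in turn. Cldn8, Cdh5 and Cldn7 lost the call without the pregnant control (limma adjusted p = 0.059 to 0.16), Cldn8 without the pregnant mutant (0.058). Cdh5, Cldn8 and Cldn7 lost it without the virgin control (0.065 to 0.14), Cldn7 without the virgin mutant (0.063). Cdh5 lost the call with the mean of probe sets (limma adjusted p = 0.2).

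In each of 5 growth factor lists more members were called lower than higher. For ErbB receptors and ligands 1 of 11 rose and 3 fell (median -0.42), and the 4 calls became 1, 1, 0 and 2 with 1 array left out. The ligand gene Egf rose from dim signals of 96.3 and 89.1 to 366 and 404, at 1.59 ± 0.25 (limma adjusted p = 0.00826), which is at least 1.45-fold. The receptor gene Egfr fell by 0.76 ± 0.19, with 2 of its 5 bright probe sets turned the other way, and the feedback inhibitor Errfi1 had -1.38 ± 0.21 (limma adjusted p = 0.00738). Erbb3, the receptor of secretory epithelium for neuregulins, did not pass (-0.36 ± 0.19 (limma adjusted p = 0.236)). In the Wnt list 1 of 25 rose and 5 fell (median 0.02), and those that fell held the receptors Fzd1 and Fzd4 and the secreted inhibitors Sfrp2 and Sfrp4. The 6 calls became 0, 3, 0 and 3 with 1 array left out. Sfrp2 read 211 and 394 in pregnant glands and 960.2 and 917 in virgin glands, at -1.53 ± 0.29 (limma adjusted p = 0.0157), and Fzd4 1020.3 and 928 in pregnant glands and 2542 and 1831 in virgin glands, at -1.11 ± 0.20 (limma adjusted p = 0.0127). Axin2, a target gene of the pathway, did not pass at -0.70 ± 0.24 (limma adjusted p = 0.0885). Errfi1, Sfrp2, Fzd4, Sfrp4, Fzd1 and Egfr lost the call without the pregnant control (limma adjusted p = 0.082 to 0.29), Egf, Fzd1 and Egfr without the pregnant mutant (0.06 to 0.14). Egf, Errfi1, Fzd4, Sfrp2, Sfrp4, Fzd1 and Egfr lost it without the virgin control (0.063 to 0.29), Fzd4, Sfrp4 and Egfr without the virgin mutant (0.051 to 0.12). Egfr lost the call after quantile normalization (limma adjusted p = 0.065), Fzd1, Egfr and Fzd4 with the mean of probe sets (0.12 to 0.92) and Egfr without the variance trend (0.059).

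In the TGF-beta and BMP pathway 1 of 30 rose and 7 fell, with a median of -0.39. The 8 calls became 1, 4, 2 and 1 with 1 array left out. The ligand gene Tgfb2 rose from 419 and 333 to 1632 and 1428, at 1.89 ± 0.37 (limma adjusted p = 0.0171), while Inhbb, which encodes the beta B subunit of activins and inhibins, fell. It read 355 (pregnant control), 343 (pregnant mutant), 2450.5 (virgin control) and 1954 (virgin mutant), and its 2 stages were far apart, at -2.48 ± 0.31 (limma adjusted p = 0.0041). The coreceptor gene Tgfbr3 had -1.03 ± 0.18 (limma adjusted p = 0.0122), but with 1 of 2 bright probe sets turned the other way its mean over probe sets was 0.12. The main receptor gene Tgfbr2 did not pass at -0.28 ± 0.19. Of Fgf, Pdgf, Vegf and Hgf genes none rose and 4 of 24 fell (median -0.53): Fgfr1, Fgfr2, Vegfd and Nrp1. The 4 calls became 0, 1, 0 and 2 with 1 array left out, and Fgfr1 and Nrp1 had 1 of 3 and 1 of 4 bright probe sets turned the other way. Vegfd, a lymphatic growth factor, read 239 and 258 in pregnant glands and 850.4 and 590 in virgin glands, at -1.34 ± 0.25 (limma adjusted p = 0.0142, at least 2.67-fold lower). Fgfr2, which serves ductal growth, read 399 and 575 in pregnant glands and 994 and 1468 in virgin glands, at -1.25 ± 0.28 (limma adjusted p = 0.0265). Inhbb was also called with each of the 4 arrays left out in turn. Tgfbr3, Tgfb2, Vegfd, Nrp1, Fgfr2 and Fgfr1 lost the call without the pregnant control (limma adjusted p = 0.085 to 0.21), Fgfr2, Tgfbr3, Nrp1 and Fgfr1 without the pregnant mutant (0.058 to 0.13). Fgfr2, Tgfbr3, Vegfd, Nrp1 and Fgfr1 lost it without the virgin control (0.08 to 0.3), Fgfr1, Tgfbr3, Tgfb2 and Fgfr2 without the virgin mutant (0.055 to 0.15). Fgfr2 and Fgfr1 lost the call after quantile normalization (limma adjusted p = 0.052 and 0.063) and Fgfr2, Fgfr1 and Tgfbr3 with the mean of probe sets (0.38 to 0.71).

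The insulin and IGF list held calls in both directions, 5 higher and 8 lower of 26, with a median of -0.45. The 13 calls became 3, 9, 1 and 9 with 1 array left out. The growth factor gene Igf1 fell by 1.36 ± 0.30, from 5794 and 2656 in the virgin pair to 1432 and 1568 in the pregnant pair. Its binding proteins Igfbp4 and Igfbp7 had ratios of -1.41 ± 0.20 (limma adjusted p = 0.00625) and -1.57 ± 0.21 (limma adjusted p = 0.00529). Igfbp5 did not pass at -0.50 ± 0.31, and its other bright probe set had 2.10. Igfals, which holds IGF in a ternary complex in blood, rose from 481 and 591 to 1704 and 1788, at 1.62 ± 0.20 (limma adjusted p = 0.0041). The adaptor gene Grb10, which dampens insulin receptor signals, read 1276 and 1173 in pregnant glands and 2775 and 2342 in virgin glands, at -1.03 ± 0.21 (limma adjusted p = 0.0201). Pdk1, a kinase that slows entry of pyruvate into the citric acid cycle and was counted here under its symbol, had 1.73 ± 0.24 (limma adjusted p = 0.00589) on its brightest probe set. Another choice of probe set, the one with the highest median, gave -0.82. Igfals was also called with each of the 4 arrays left out in turn. Igfbp4, Grb10 and Igf1 lost the call without the pregnant control (limma adjusted p = 0.058 to 0.21), Grb10 without the pregnant mutant (0.12). Pdk1, Igfbp7, Igfbp4, Grb10 and Igf1 lost it without the virgin control (0.053 to 0.22), Grb10 without the virgin mutant (0.053). Pdk1 and Grb10 lost the call with the mean of probe sets (limma adjusted p = 0.074 and 0.89).

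Of 27 fatty acid synthesis genes 3 rose, all for desaturation or elongation of fatty acids, and 5 fell (median -0.47). The 8 calls became 3, 6, 2 and 8 with 1 array left out. Fads2, the first desaturase on the way to long polyunsaturated fatty acids, read 2651 (pregnant control), 2820.4 (pregnant mutant), 368 (virgin control) and 735 (virgin mutant). The pregnant signals were the higher in both genotypes, with a log2 ratio of 2.28 ± 0.24 (limma adjusted p = 0.00267). Its partner Fads1 rose from 4534 and 4115 to 11806 and 11884, at 1.44 ± 0.20 (limma adjusted p = 0.00575), and the elongase gene Elovl1 from 833 and 1021 to 3850.1 and 3416, at 1.92 ± 0.20 (limma adjusted p = 0.00267). The core enzymes Acly, Acaca and Fasn did not pass, at -0.37 ± 0.24, -0.48 ± 0.30 and -0.34 ± 0.20. They were bright at both stages, with Fasn at 21715 and 26010 in pregnant glands and 29462 and 30600 in virgin glands. The other bright probe set of Acaca had 0.65. Mlxipl, a factor that switches on fat synthesis in response to sugar, had -1.63 ± 0.28 (limma adjusted p = 0.0112). The sterol regulator Srebf1 did not pass (0.39 ± 0.30 (limma adjusted p = 0.418)), and of 21 sterol synthesis genes Ebp and Mvd rose, by 1.15 ± 0.21 and 0.85 ± 0.23, with a list median of 0.22 that turned to -0.31 with spike-in scaling. Fads2 and Elovl1 were also called with each of the 4 arrays left out in turn. Mlxipl, Ebp and Mvd lost the call without the pregnant control (limma adjusted p = 0.099 to 0.35), Mvd without the pregnant mutant (0.12). Fads1, Mlxipl, Ebp and Mvd lost it without the virgin control (0.054 to 0.2), Ebp and Mvd without the virgin mutant (0.051 and 0.21). Mvd lost the call after quantile normalization (limma adjusted p = 0.11), after median centring (0.11) and with the larger pseudocount (0.052). Mvd lost the call with no filter on dim genes (0.08), with the mean of probe sets (0.064) and without the variance trend (0.061). Ebp and Mvd lost the call with spike-in scaling (0.18 and 0.44).

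For triglyceride and phospholipid synthesis 2 of 30 rose and 6 fell (median -0.15), and the 8 calls became 3, 4, 3 and 5 with 1 array left out. The acyl-CoA synthetase gene Acsl4 rose from 2788 and 2921 to 10176 and 10153, at 1.81 ± 0.19 (limma adjusted p = 0.00265). Agpat2 and Dgat2, which build triglyceride in fat cells among others, were lower. Agpat2 read 2162 and 3070.4 in pregnant glands and 10428 and 9656 in virgin glands, at -1.94 ± 0.27 (limma adjusted p = 0.00575), and Dgat2 4815 and 6264 in pregnant glands and 16904 and 13265 in virgin glands, at -1.44 ± 0.27 (limma adjusted p = 0.0159). Dgat1, the other enzyme of the last step, did not pass at -0.26 ± 0.21, nor did Lpin1 at 0.11 ± 0.39 and Gpam at -0.82 ± 0.26. Each had 2 bright probe sets of opposite sign, with the other at 0.37 for Dgat1, -1.18 for Lpin1 and 1.27 for Gpam. The other member that rose was the fatty acid carrier Fabp3, which is on the milk list. Fatty acid oxidation had 1 call among 24 genes, Ehhadh of the peroxisome, at 1.28 ± 0.25 (limma adjusted p = 0.018). Acsl4 and Agpat2 were also called with each of the 4 arrays left out in turn. Ehhadh and Dgat2 lost the call without the pregnant control (limma adjusted p = 0.064 and 0.12), Ehhadh without the pregnant mutant (0.12). Dgat2 and Ehhadh lost it without the virgin control (0.12 and 0.16), Dgat2 without the virgin mutant (0.052). Dgat2 lost the call with the mean of probe sets (limma adjusted p = 0.077) and Ehhadh with spike-in scaling (0.1).

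Of 28 adipocyte genes 11 fell and 1 rose, with a median of -0.87. The 12 calls became 1, 9, 2 and 7 with 1 array left out. Pparg, the master regulator of fat cells, read 986 (pregnant control), 1162 (pregnant mutant), 5496 (virgin control) and 2332 (virgin mutant). The virgin control was the highest and both pregnant arrays were below the virgin mutant, at -1.70 ± 0.32 (limma adjusted p = 0.0164). Rbp4, the retinol carrier of blood, read 1547 and 3013 in pregnant glands and 12507 and 7345 in virgin glands, at -2.12 ± 0.37 (limma adjusted p = 0.0117), and Retn, the fat hormone resistin, 1518 and 5380 in pregnant glands and 17865 and 13654 in virgin glands, at -2.42 ± 0.61 (limma adjusted p = 0.039). The droplet coat gene Plin4 fell by 1.29 ± 0.18, from 11142 and 7555 to 4465 and 3085. The most abundant fat hormone gene, Adipoq, did not pass at -0.52 ± 0.23 (limma adjusted p = 0.163), and Lep, the leptin gene, was higher in both controls than in both mutants, at 4672 and 1443 in pregnant glands and 4167 and 1202 in virgin glands. G0s2, an inhibitor of fat breakdown, went the other way, from 5498 and 5623 to 13190 and 17018, at 1.42 ± 0.20 (limma adjusted p = 0.00625). Brown fat genes had 2 of 11 higher, Fabp3 and Cidea, both also milk list genes, while Ucp1, the uncoupling protein that defines brown fat, overlapped between stages at 1414 and 2259 in pregnant glands and 1604 and 349 in virgin glands. The brown fat median of 0.43 turned to -0.11 with spike-in scaling. G0s2 was also called with each of the 4 arrays left out in turn. Plin4, Rbp4, Pparg and Retn lost the call without the pregnant control (limma adjusted p = 0.052 to 0.15), Plin4, Rbp4, Pparg and Retn without the virgin control (0.058 to 0.23). Retn lost it without the virgin mutant (0.08). Retn lost the call after quantile normalization (limma adjusted p = 0.063), with no filter on dim genes (0.06) and with the mean of probe sets (0.06). Retn lost the call without the variance trend (0.059).

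Of 28 genes for glucose uptake, glycolysis and lactose supply 6 rose and 2 fell (median 0.12). The 8 calls became 1, 4, 3 and 2 with 1 array left out. The glucose carrier gene Slc2a1 read 3467 and 3625 in pregnant glands and 1648 and 1414 in virgin glands, at 1.19 ± 0.21 (limma adjusted p = 0.0126), and Slc35a2, which brings UDP-galactose into the Golgi, read 2352 and 2732 in pregnant glands and 1186 and 1043 in virgin glands, at 1.15 ± 0.22 (limma adjusted p = 0.015), with 1 of its 5 bright probe sets turned the other way. Slc2a3, a glucose carrier of neurons and leukocytes, read 99.2 and 89.4 in pregnant glands and 454 and 553 in virgin glands, at -1.92 ± 0.30 (limma adjusted p = 0.00833, at least 1.89-fold lower). Pfkfb3, a switch of glycolysis, fell by 1.55 ± 0.19, with 1 of 2 bright probe sets turned the other way. The hexokinase genes Hk1 and Hk2 did not pass, at -0.03 ± 0.26 and -0.32 ± 0.33, and the other bright probe set of Hk1 had 0.85. In the citric acid cycle and its carriers 3 of 31 rose and none fell (median 0.17): Cs at 0.73 ± 0.20, Got2 at 0.91 ± 0.19 and Slc25a12, with 1 of 2 bright probe sets turned the other way, at 0.78 ± 0.20. In the respiratory chain and ATP synthase 2 of 48 rose and none fell (median 0.16), 1 of them with any 1 array left out, and Atp5g1, a ring subunit of the ATP synthase, rose to 5186 and 5276 from 1727 and 1914 (limma adjusted p = 0.00459). The mean of probe sets gave -0.59 for Pfkfb3 and 0.41 for Atp5g1. Citrate synthase and the carriers are abundant in muscle too. Pfkfb3 and Atp5g1 were also called with each of the 4 arrays left out in turn. Slc2a3, Slc2a1, Slc35a2, Cs, Slc25a12 and Got2 lost the call without the pregnant control (limma adjusted p = 0.061 to 0.21), Slc2a1, Got2, Slc35a2, Slc25a12 and Cs without the pregnant mutant (0.064 to 0.26). Slc2a3, Got2, Slc25a12 and Cs lost it without the virgin control (0.06 to 0.26), Slc2a3, Slc2a1, Got2, Slc35a2, Cs and Slc25a12 without the virgin mutant (0.08 to 0.17). Cs and Slc25a12 lost the call after quantile normalization (limma adjusted p = 0.056 and 0.057), Got2, Slc25a12 and Cs after median centring (0.07 to 0.14) and Slc25a12 and Cs with no filter on dim genes (0.06 and 0.077). Slc35a2, Cs, Pfkfb3, Atp5g1 and Slc25a12 lost the call with the mean of probe sets (0.051 to 0.84), Slc25a12 and Cs without the variance trend (0.055 and 0.074) and Slc2a1, Slc35a2, Got2, Slc25a12 and Cs with spike-in scaling (0.16 to 0.65).

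Ion and trace metal transport had the largest share of higher members of the lists outside milk and muscle, 10 of 34, with 1 lower. With 1 array left out the 11 calls became 5, 7, 5 and 8, and the list median of 0.34 turned to -0.20 with spike-in scaling. Atp2c2 (chr8:119700009-119757718), a pump that loads the Golgi with calcium and manganese, read 1753 (pregnant control), 1815 (pregnant mutant), 103 (virgin control) and 146 (virgin mutant). Both virgin arrays were dim and both pregnant arrays bright, at 3.39 ± 0.20 (limma adjusted p = 0.000552), at least 6.73-fold. Orai1, the calcium channel of the plasma membrane, read 1548 and 1581 in pregnant glands and 214 and 386 in virgin glands, at 2.24 ± 0.28 (limma adjusted p = 0.0041). Tfrc, the transferrin receptor for iron uptake, rose from 1468 and 2113 to 7859.5 and 11470, at 2.40 ± 0.26 (limma adjusted p = 0.00313). The metal importer gene Slc39a14 read 4699.7 and 4352 in pregnant glands and 1101 and 1214 in virgin glands, at 1.92 ± 0.20 (limma adjusted p = 0.00267), and the zinc exporter gene Slc30a4 4031 and 3849.5 in pregnant glands and 1992 and 1957 in virgin glands, at 0.98 ± 0.22 (limma adjusted p = 0.0252). The phosphate and iodide carriers Slc20a2 and Slc5a5 did not pass, at 0.33 ± 0.21 and 0.33 ± 0.26. Atp2c2, Orai1, Tfrc and Slc39a14 were also called with each of the 4 arrays left out in turn. Slc30a4 lost the call without the pregnant control (limma adjusted p = 0.11), without the pregnant mutant (0.15), without the virgin control (0.22) and without the virgin mutant (0.062). Slc30a4 lost the call with spike-in scaling (limma adjusted p = 0.34).

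Of 32 genes of amino acid transport and serine and glycine metabolism 5 rose and 3 fell (median 0.07). The 8 calls became 5, 4, 4 and 5 with 1 array left out. Slc7a5, which carries large neutral amino acids, read 1934 (pregnant control), 1146 (pregnant mutant), 94.4 (virgin control) and 530.3 (virgin mutant). The pregnant arrays were the higher, with the virgin control lowest, at 2.40 ± 0.53 (limma adjusted p = 0.025). Aldh18a1, which makes the precursor of proline, rose by 1.37 ± 0.20 (limma adjusted p = 0.00672), and the alanine and serine carrier Slc1a4 by 1.23 ± 0.26 (limma adjusted p = 0.021, at least 1.72-fold higher). The glutamate carrier Slc1a3 had the opposite direction, with 261 and 366 in pregnant glands and 2109.9 and 1455 in virgin glands and a log2 ratio of -2.32 ± 0.28 (limma adjusted p = 0.00406). Asns, the asparagine synthetase that rises when amino acids run short, did not pass at 0.51 ± 0.31 (limma adjusted p = 0.311). Slc1a3 was also called with each of the 4 arrays left out in turn. Slc1a4 and Slc7a5 lost the call without the pregnant control (limma adjusted p = 0.09 and 0.15), Aldh18a1 and Slc1a4 without the pregnant mutant (0.053 and 0.14). Aldh18a1, Slc7a5 and Slc1a4 lost it without the virgin control (0.059 to 0.17), Slc1a4 without the virgin mutant (0.063). Slc1a4 lost the call after quantile normalization (limma adjusted p = 0.052) and with spike-in scaling (0.088).

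Of 41 genes of protein entry, folding and stress in the endoplasmic reticulum (ER) 8 rose and none fell. With 1 array left out the 8 calls became 1, 5, 1 and 3, and the median of 0.20 turned to -0.34 with spike-in scaling. Ssr2 and Ssr4, subunits of the complex at the translocon, and Sec61a1, its channel, were among them. Ssr2 read 5268 (pregnant control), 4975 (pregnant mutant), 1042 (virgin control) and 1679.5 (virgin mutant). The 2 pregnant signals were close together and far above both virgin signals, at 1.91 ± 0.23 (limma adjusted p = 0.00378). Ssr4 read 14171 and 12138 in pregnant glands and 5095 and 5573 in virgin glands, at 1.29 ± 0.20 (limma adjusted p = 0.00748), and Sec61a1 7693 and 7649 in pregnant glands and 3404 and 3936 in virgin glands, at 1.06 ± 0.18 (limma adjusted p = 0.0119). The chaperone gene Hspa5 (BiP), the usual readout of ER stress, overlapped between stages at 12653 and 14877 in pregnant glands and 13165 and 13494 in virgin glands, with a ratio of 0.04 ± 0.21 (limma adjusted p = 0.915). Creld2, another stress target, did not pass at 0.08 ± 0.27. Ssr2 was also called with each of the 4 arrays left out in turn. Ssr4 and Sec61a1 lost the call without the pregnant control (limma adjusted p = 0.063 and 0.11), Ssr4 and Sec61a1 without the virgin control (0.078 and 0.12). Sec61a1 lost it without the virgin mutant (0.051). Ssr4 and Sec61a1 lost the call with spike-in scaling (limma adjusted p = 0.051 and 0.23).

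The promoter of Hspa5 is shown because it carries the ER stress response element (ERSE), the motif through which unfolded protein raises chaperone genes, in capitals. It lies at chr2:34771870-34772119 on the plus strand of GRCm38, from 220 bases before to 30 after the RefSeq start.
Hspa5: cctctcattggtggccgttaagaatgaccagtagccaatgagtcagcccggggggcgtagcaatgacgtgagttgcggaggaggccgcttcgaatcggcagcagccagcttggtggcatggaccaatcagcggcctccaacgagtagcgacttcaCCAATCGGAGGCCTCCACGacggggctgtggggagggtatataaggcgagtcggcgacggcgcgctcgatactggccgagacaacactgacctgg
The element begins 65 bases before the start. It was searched by its name's full consensus on both strands and found in 15 of 9252 tested genes, or 0.162%. Of the 34 ER list genes with a sequence, 8 held it, or 23.5%. Those 8 genes had log2 ratios from -0.23 for Hsp90b1 to 0.28 for Calr with a median of 0.05. None was called, against 14.7% of all genes tested, and 8 genes are too few to set against that share. No called gene of the 588 higher or 716 lower with a sequence held it. With the element in only 0.162% of tested genes, this absence is no result about genes that hold it.

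In vesicle transport and the Golgi 10 of 46 rose and none fell, with a median of 0.26 that turned to -0.28 with spike-in scaling. The 10 calls became 2, 4, 1 and 3 with 1 array left out. Surf4, a receptor that loads cargo into vesicles leaving the ER, read 7518 (pregnant control), 6074 (pregnant mutant), 1665 (virgin control) and 1735 (virgin mutant). Pregnant and virgin signals were far apart in both genotypes, at 1.96 ± 0.19 (limma adjusted p = 0.00215). Sec23b, a coat protein of those vesicles, read 4519.5 and 4553 in pregnant glands and 1722 and 2012 in virgin glands, at 1.26 ± 0.19 (limma adjusted p = 0.00784), and Arfgap3, which acts on the coat of return vesicles, 2244 and 1391 in pregnant glands and 692 and 534 in virgin glands, at 1.46 ± 0.19 (limma adjusted p = 0.00477). Rab18, a GTPase of lipid droplets and the ER, rose by 1.09 ± 0.27 (limma adjusted p = 0.0376), and Creb3l1, a factor for secretory capacity, by 1.24 ± 0.24 (limma adjusted p = 0.0161, at least 2.17-fold higher). Of 43 glycosylation genes 7 rose and 2 fell (median 0.07), and the 9 calls became 1, 7, 1 and 8. St6gal1, which adds sialic acid, read 5492 and 5086 in pregnant glands and 1896 and 2500.4 in virgin glands, at 1.26 ± 0.22 (limma adjusted p = 0.0115), and Galnt3, which starts O-glycans, 2305 and 2441 in pregnant glands and 667 and 1210 in virgin glands, at 1.35 ± 0.23 (limma adjusted p = 0.0106). Man1a, a mannose-trimming enzyme, had -1.36 ± 0.20 (limma adjusted p = 0.00686). Surf4 was also called with each of the 4 arrays left out in turn. Arfgap3, Sec23b, Man1a, St6gal1, Rab18 and Galnt3 lost the call without the pregnant control (limma adjusted p = 0.057 to 0.11), Creb3l1 and Rab18 without the pregnant mutant (0.12 and 0.17). Arfgap3, Man1a, Sec23b, Galnt3, Creb3l1, St6gal1 and Rab18 lost it without the virgin control (0.051 to 0.29), Rab18 and Creb3l1 without the virgin mutant (0.055 and 0.067). Rab18 lost the call after quantile normalization (limma adjusted p = 0.055), after median centring (0.053) and with no filter on dim genes (0.062). Rab18 lost the call without the variance trend (0.06), without the genotype term (0.074) and Galnt3, Creb3l1, St6gal1, Sec23b and Rab18 with spike-in scaling (0.073 to 0.19).

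Of 36 aminoacyl-tRNA synthetases and initiation factors 8 rose and none fell, with a median of 0.33 that turned to -0.21 with spike-in scaling. With 1 array left out the 8 calls became 0, 3, 0 and 3. Farsa, for phenylalanine, read 790 (pregnant control), 803 (pregnant mutant), 114 (virgin control) and 318 (virgin mutant). Its virgin control was the lowest, 1 of its 3 bright probe sets had the other sign, and the ratio was 1.77 ± 0.30 (limma adjusted p = 0.0114). Sars, for serine, read 4565 and 3072 in pregnant glands and 1427 and 1852 in virgin glands, at 1.18 ± 0.25 (limma adjusted p = 0.021), Iars, for isoleucine, 3410.4 and 3675 in pregnant glands and 1846 and 1606 in virgin glands, at 1.02 ± 0.21 (limma adjusted p = 0.0197), and Wars, for tryptophan, 635 and 713 in pregnant glands and 327 and 262 in virgin glands, at 1.07 ± 0.23 (limma adjusted p = 0.0216). None of 37 cytosolic ribosomal protein genes was called by limma (median -0.10). Of 37 ribosome biogenesis genes 1 rose, Noc4l, at 1.40 ± 0.23 (limma adjusted p = 0.00987), and the list median of 0.06 turned to -0.12 after median centring and -0.48 with spike-in scaling. The growth regulator Myc did not pass at -0.84 ± 0.42 (limma adjusted p = 0.214). Wars, Farsa, Noc4l, Iars and Sars lost the call without the pregnant control (limma adjusted p = 0.09 to 0.21), Iars and Wars without the pregnant mutant (0.1 and 0.16). Iars, Farsa, Noc4l, Wars and Sars lost it without the virgin control (0.067 to 0.2), Wars and Iars without the virgin mutant (0.12 and 0.13). Iars lost the call after median centring (limma adjusted p = 0.06), Wars and Farsa with the mean of probe sets (0.074 and 0.12) and Sars, Wars and Iars with spike-in scaling (0.16 to 0.3).

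**Figure D4:**
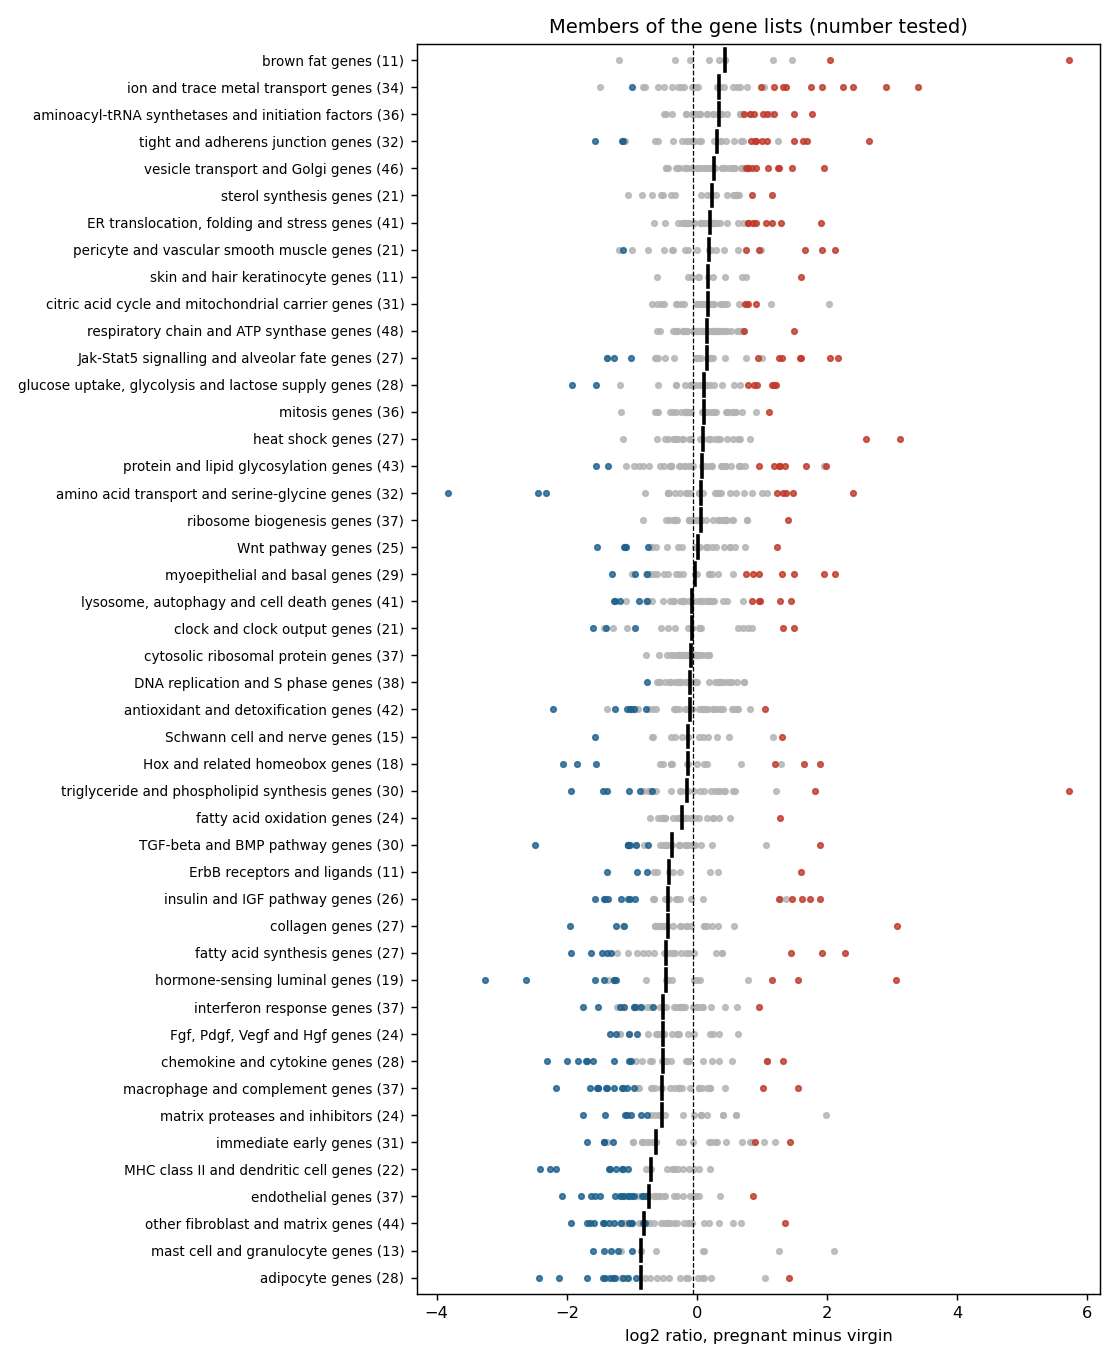
Log2 ratio of pregnant to virgin signal for each tested member of the gene lists, with red for called higher, blue for called lower, grey for not called, and a black bar at the list's median. The dashed line is the median of all genes tested, -0.06, and the number of tested members is in brackets.

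Of 38 DNA replication and S phase genes 1 fell, Mcm7 at -0.77 ± 0.20 (limma adjusted p = 0.0423), with 2 of its 4 bright probe sets turned the other way. Of 36 mitosis genes 1 rose, Kif2c at 1.10 ± 0.30 (limma adjusted p = 0.048), with 1 of 4 turned the other way. Mki67, a marker of cycling cells, read 1689 (pregnant control), 1945 (pregnant mutant), 1080.5 (virgin control) and 2628 (virgin mutant). The virgin control was lowest and the virgin mutant highest, so the stages overlapped, at 0.10 ± 0.58 (limma adjusted p = 0.929). Cdk1, the kinase that starts mitosis, read 826 and 1131 in pregnant glands and 530.5 and 1228 in virgin glands, and Pcna, the replication clamp, 4291 and 7276 in pregnant glands and 6660.1 and 9250.4 in virgin glands, both again with overlap. The mitosis list's median was 0.59 between the controls and -0.46 between the mutants. Kif2c and Mcm7 lost the call without the pregnant control (limma adjusted p = 0.14 and 0.37), Mcm7 and Kif2c without the pregnant mutant (0.1 and 0.32). Kif2c and Mcm7 lost it without the virgin control (0.18 and 0.27), Mcm7 and Kif2c without the virgin mutant (0.15 and 0.21). Mcm7 and Kif2c lost the call after quantile normalization (limma adjusted p = 0.065 and 0.098), Kif2c after median centring (0.066) and with the larger pseudocount (0.06). Mcm7 and Kif2c lost the call with no filter on dim genes (0.053 and 0.086), Kif2c and Mcm7 with the mean of probe sets (0.41 and 0.53) and Mcm7 without the variance trend (0.069). Mcm7 lost the call without the genotype term (0.078) and Kif2c with spike-in scaling (0.24).

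The promoter of Cdk1 is shown because it carries 2 copies, in capitals, of TTTGAA, the core of the cell cycle homology region that times many mitosis genes. It lies at chr10:69352883-69353132 on the minus strand of GRCm38, from 220 bases before to 30 after the RefSeq start, written in the direction of the gene.
Cdk1: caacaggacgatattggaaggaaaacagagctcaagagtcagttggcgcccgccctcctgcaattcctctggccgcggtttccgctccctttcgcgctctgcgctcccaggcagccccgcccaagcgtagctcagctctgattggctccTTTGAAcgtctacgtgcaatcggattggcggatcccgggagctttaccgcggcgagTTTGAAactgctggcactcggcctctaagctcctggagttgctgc
The copies begin 71 and 15 bases before the start. On both strands TTTGAA was found in 14.3% of the 9252 tested genes with a sequence and in 24 of 31, or 77.4%, of the mitosis list. Of those 24 genes 1 was called, and their median log2 ratio was 0.11.

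Of 44 fibroblast and matrix genes 14 fell and 1 rose (median -0.81). The 15 calls became 2, 6, 3 and 10 with 1 array left out. Lum, a proteoglycan that spaces collagen fibrils, read 4957 (pregnant control), 5619 (pregnant mutant), 14563 (virgin control) and 14477 (virgin mutant). The control and mutant arrays of a stage were close and the stages apart, at -1.45 ± 0.18 (limma adjusted p = 0.00424). Fn1, the fibronectin gene, read 2849 and 5297 in pregnant glands and 12529 and 12748 in virgin glands, at -1.69 ± 0.24 (limma adjusted p = 0.00598), and the mesenchymal factor gene Prrx1 682 and 831 in pregnant glands and 3064 and 1962 in virgin glands, at -1.64 ± 0.27 (limma adjusted p = 0.00964). Dcn, decorin, did not pass at -0.46 ± 0.20 (limma adjusted p = 0.161), nor did Pdgfra, the receptor that marks fibroblasts, at -1.18 ± 0.34 (limma adjusted p = 0.0585). Lum was also called with each of the 4 arrays left out in turn. Fn1 and Prrx1 lost the call without the pregnant control (limma adjusted p = 0.051 and 0.088) and Fn1 and Prrx1 without the virgin control (0.056 and 0.1). Prrx1 lost the call with the mean of probe sets (limma adjusted p = 0.27).

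Among 27 collagens 3 fell and 1 rose, with a median of -0.45, and the 4 calls became 2, 4, 2 and 3 with 1 array left out. The fibril collagens Col1a1 and Col3a1 and the basement membrane collagen Col4a1 did not pass, at -0.65 ± 0.25, -0.51 ± 0.21 and -0.59 ± 0.22. Col9a1, best known from cartilage, rose from 605 and 1063 in the virgin pair to 9776 and 5273 in the pregnant pair, by 3.08 ± 0.36 (limma adjusted p = 0.00356). Col8a1, a short-chain collagen of vessels, read 200 and 142 in pregnant glands and 653 and 982 in virgin glands, at -1.95 ± 0.30 (limma adjusted p = 0.00832, at least 3.02-fold lower), and Col14a1, which binds fibrils, 842 and 1202 in pregnant glands and 2868 and 2122 in virgin glands, at -1.25 ± 0.25 (limma adjusted p = 0.0183). Of matrix proteases and inhibitors 7 of 24 fell and none rose (median -0.53), and the 7 calls became 0, 2, 0 and 2. Mmp3, a stromelysin, read 1505 and 1762 in pregnant glands and 3165 and 3847 in virgin glands, at -1.08 ± 0.19 (limma adjusted p = 0.0119). The inhibitor genes Timp2 and Timp3 had -0.86 ± 0.20 and -1.75 ± 0.28, but with 1 of 5 and 2 of 4 bright probe sets turned the other way, and Timp2 had 0.51 as a mean over probe sets. Col9a1 was also called with each of the 4 arrays left out in turn. Timp3, Timp2, Mmp3 and Col14a1 lost the call without the pregnant control (limma adjusted p = 0.08 to 0.18), Mmp3 and Timp2 without the pregnant mutant (0.074 and 0.19). Timp3, Mmp3, Timp2 and Col14a1 lost it without the virgin control (0.051 to 0.19), Mmp3, Col8a1 and Timp2 without the virgin mutant (0.073 to 0.18). Timp2, Col14a1 and Timp3 lost the call with the mean of probe sets (limma adjusted p = 0.15 to 0.5) and Timp2 without the variance trend (0.051).

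Endothelial genes had the largest share of lower members of the lists outside lymphocytes, 16 of 37, with 1 higher and a median of -0.73. The 17 calls became 1, 7, 1 and 6 with 1 array left out. Lyve1, a hyaluronan receptor of lymphatic vessels, read 453 (pregnant control), 635 (pregnant mutant), 2525 (virgin control) and 2331 (virgin mutant). The virgin arrays were close together and the pregnant arrays lay far below them, at -2.07 ± 0.24 (limma adjusted p = 0.00356). Vwf, the clotting factor of endothelial cells, read 286 and 362 in pregnant glands and 1120.2 and 1369 in virgin glands, at -1.79 ± 0.30 (limma adjusted p = 0.00999). Cdh5, given above, fell as well. Other defining endothelial genes did not pass: Pecam1 had -0.36 ± 0.20 (limma adjusted p = 0.273) and Kdr, the main Vegf receptor, -0.10 ± 0.22 (limma adjusted p = 0.805). Gpihbp1, which holds lipoprotein lipase in capillaries, was higher in both pregnant arrays without passing (0.35 ± 0.19 (limma adjusted p = 0.252)). Among 15 Schwann cell and nerve genes the myelin gene Pmp22 fell by 1.57 ± 0.22, Sox10 rose as given above, and the myelin gene Mbp did not pass at -0.67 ± 0.23. Lyve1 was also called with each of the 4 arrays left out in turn. Cdh5, Pmp22 and Vwf lost the call without the pregnant control (limma adjusted p = 0.061 to 0.097), Pmp22, Cdh5 and Vwf without the virgin control (0.063 to 0.083). Vwf lost it without the virgin mutant (0.091). Cdh5 lost the call with the mean of probe sets (limma adjusted p = 0.2).

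Of 37 macrophage and complement genes 12 fell and 2 rose (median -0.53). The 14 calls became 2, 7, 1 and 8 with 1 array left out. Fcgr3, an antibody receptor, read 423 and 395 in pregnant glands and 1324 and 1217 in virgin glands, at -1.52 ± 0.21 (limma adjusted p = 0.00598), and Itgb2, the shared chain of leukocyte integrins, 727 and 573 in pregnant glands and 1859 and 1688 in virgin glands, at -1.38 ± 0.21 (limma adjusted p = 0.00755). The protease gene C1s1 of the complement cascade read 1661 and 2155 in pregnant glands and 6674 and 5433 in virgin glands, at -1.64 ± 0.24 (limma adjusted p = 0.00693), and Mrc1, the mannose receptor of tissue macrophages, 1779 and 1482 in pregnant glands and 4626 and 2826 in virgin glands, at -1.13 ± 0.25 (limma adjusted p = 0.0264). The lineage gene Csf1r did not pass at -0.42 ± 0.18 (limma adjusted p = 0.167). C1qa went the other way at 1.56 ± 0.37 (limma adjusted p = 0.0326), while the genes of its partner chains, C1qb and C1qc, did not pass at -0.28 each. Mast cell and granulocyte genes had 5 of 13 lower and none higher (median -0.87), which became 0, 3, 0 and 3, among them the mast cell protease genes Cpa3 at -1.42 ± 0.27 (limma adjusted p = 0.0164) and Cma1 at -1.32 ± 0.26 (limma adjusted p = 0.0175). Fcgr3, C1s1, C1qa, Cpa3, Mrc1 and Cma1 lost the call without the pregnant control (limma adjusted p = 0.058 to 0.16), Itgb2, C1qa and Mrc1 without the pregnant mutant (0.056 to 0.12). Fcgr3, C1s1, Itgb2, Cpa3, Cma1, Mrc1 and C1qa lost it without the virgin control (0.06 to 0.26). Mrc1 lost the call after quantile normalization (limma adjusted p = 0.056) and C1qa with no filter on dim genes (0.0502).

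Of 22 MHC class II and dendritic cell genes 9 fell and none rose (median -0.71). The 9 calls became 3, 7, 1 and 6 with 1 array left out. Irf8, a factor of dendritic and B cells, read 278 (pregnant control), 365 (pregnant mutant), 1748 (virgin control) and 1694 (virgin mutant). The virgin signals were close together and several times the pregnant signals, at -2.26 ± 0.25 (limma adjusted p = 0.00313). H2-Aa, a class II chain, read 3917 and 4724 in pregnant glands and 14456 and 8471 in virgin glands, at -1.35 ± 0.29 (limma adjusted p = 0.0223), and Cd74, the class II chaperone, 5236 and 8381 in pregnant glands and 13595 and 14190 in virgin glands, at -1.06 ± 0.21 (limma adjusted p = 0.0185). H2-Ob, a class II modulator of B cells, had -2.41 ± 0.32 (limma adjusted p = 0.00515), at least 3.66-fold lower. B cells carry these genes too, and their list was 21 of 30 lower. The part of B cells in these values was not tested. Irf8 was also called with each of the 4 arrays left out in turn. Cd74 and H2-Aa lost the call without the pregnant control (limma adjusted p = 0.17 and 0.17), H2-Ob, Cd74 and H2-Aa without the virgin control (0.056 to 0.19). H2-Ob lost it without the virgin mutant (0.055).

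The promoter of Irf8 is shown beside that of Cish because it holds the same palindrome, again in 2 copies, while its gene moved the opposite way. It lies at chr8:120736138-120736387 on the plus strand of GRCm38, from 220 bases before to 30 after the RefSeq start. Orai1, a gene that rose, holds 1 copy at chr5:123014854-123015103 on the plus strand over the same span.
Irf8: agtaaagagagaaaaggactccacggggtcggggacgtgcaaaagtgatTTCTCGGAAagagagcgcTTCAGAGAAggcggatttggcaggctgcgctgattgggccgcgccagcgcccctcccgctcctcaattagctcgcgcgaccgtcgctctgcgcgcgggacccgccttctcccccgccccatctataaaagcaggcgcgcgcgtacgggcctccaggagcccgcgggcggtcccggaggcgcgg
Orai1: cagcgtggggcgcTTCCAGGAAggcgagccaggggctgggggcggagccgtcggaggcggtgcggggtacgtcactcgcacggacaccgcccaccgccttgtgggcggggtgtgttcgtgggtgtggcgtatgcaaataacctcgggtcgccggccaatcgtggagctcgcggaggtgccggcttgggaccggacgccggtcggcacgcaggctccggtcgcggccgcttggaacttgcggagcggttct
The copies begin 171 and 153 bases before the start in Irf8, and 207 before it in Orai1. The palindrome was found in 5 of 17 MHC class II and dendritic cell genes with a sequence (29.4%) and 9 of 31 interferon response genes (29.0%), against 1 of 26 (3.85%) in the ion transport list that holds Orai1 and the 8.24% of all tested. These letters do not tell which member of the Stat family, if any, binds.

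Of 37 interferon response genes 8 fell and 1 rose (median -0.52). The 9 calls became 1, 3, 2 and 3 with 1 array left out. H2-D1, an MHC class I gene, read 1474 and 1389 in pregnant glands and 3943 and 4482 in virgin glands, at -1.52 ± 0.20 (limma adjusted p = 0.00523), and shares sequence with its class I relatives, so the signal may come from several. The mean of its probe sets gave -0.38. Ifitm1 and Ifitm3, membrane proteins against viruses, had -1.75 ± 0.26 (limma adjusted p = 0.00672) and -1.12 ± 0.19 (limma adjusted p = 0.0108). Of 28 chemokine and cytokine genes 9 fell and 2 rose (median -0.53), and the 11 calls became 3, 8, 3 and 9. Cxcl12, made by stromal cells, read 1453 (pregnant control), 1606 (pregnant mutant), 5363 (virgin control) and 4866 (virgin mutant). The stages did not overlap, at -1.71 ± 0.19 (limma adjusted p = 0.00331). The T cell attractant Cxcl9 fell to 374 and 359.9 from 1878 and 1409.5 (limma adjusted p = 0.00340), Ccl5, another, had -2.30 ± 0.36 (limma adjusted p = 0.00813), and Cxcl13, which draws B cells, -1.69 ± 0.24 (limma adjusted p = 0.00618). Ccl28, made by secretory epithelium and known for drawing plasma cells into the gland, rose from 207 and 132 to 699.9 and 342, at 1.32 ± 0.22 (limma adjusted p = 0.0103, at least 1.84-fold higher). H2-D1, Cxcl12, Cxcl9 and Cxcl13 were also called with each of the 4 arrays left out in turn. Ccl5, Ifitm1, Ifitm3 and Ccl28 lost the call without the pregnant control (limma adjusted p = 0.052 to 0.11), Ccl5, Ccl28 and Ifitm3 without the virgin control (0.053 to 0.12). Ifitm1 lost it without the virgin mutant (0.051). Cxcl12, Ccl28 and H2-D1 lost the call with the mean of probe sets (limma adjusted p = 0.052 to 0.25) and Ccl28 with spike-in scaling (0.053).

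**Figure D5:**
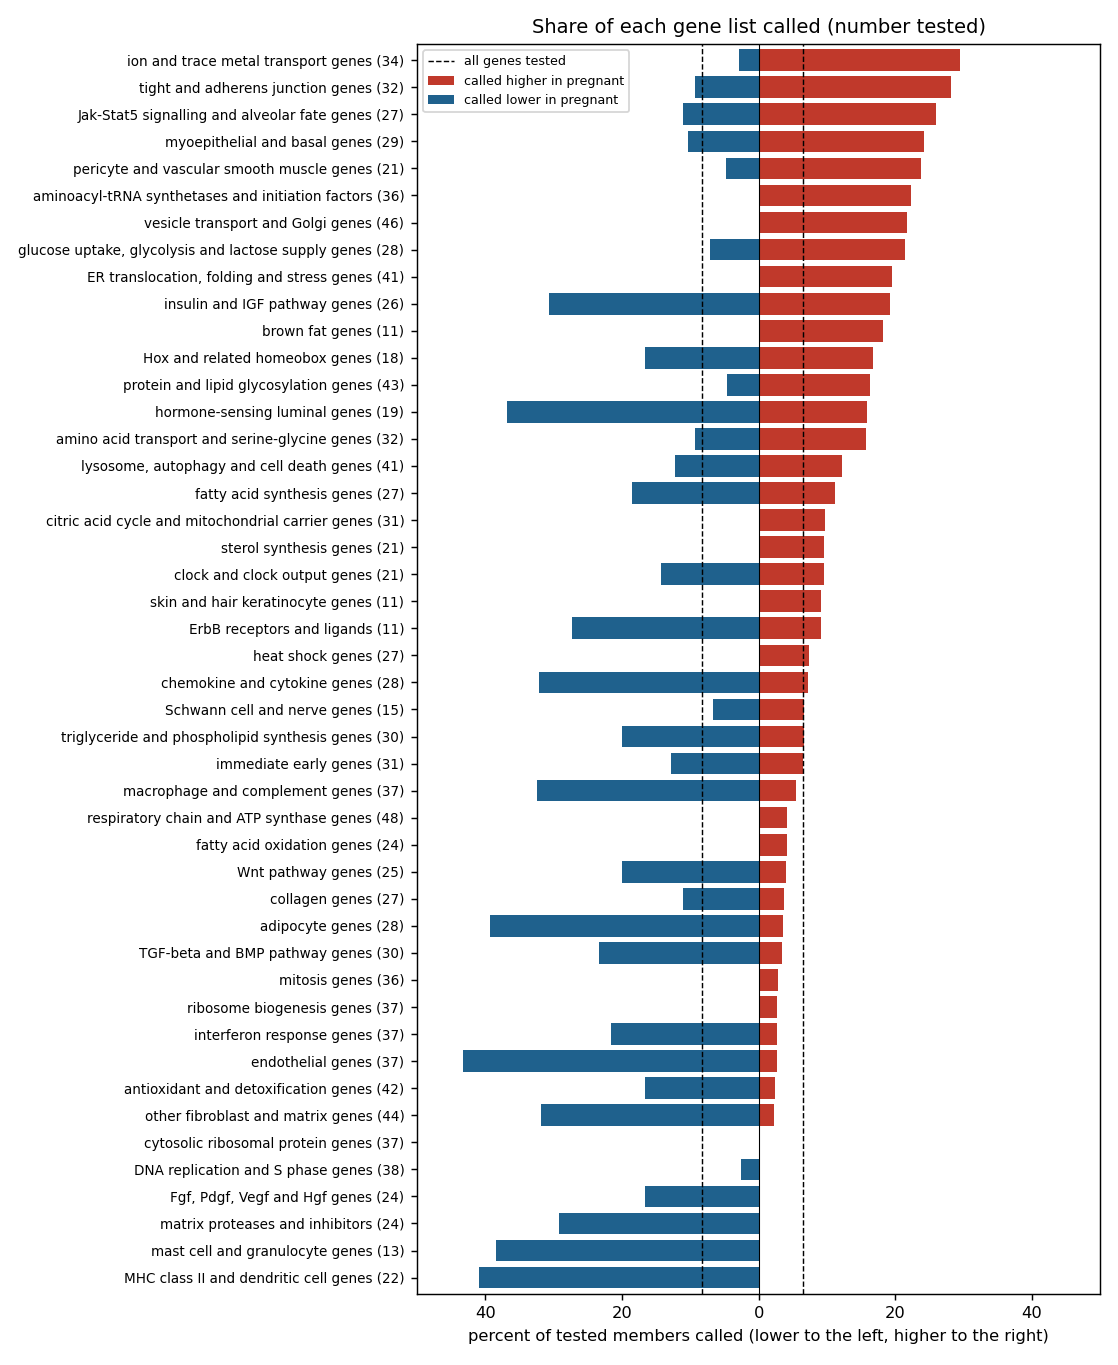
Percent of each list's tested members called higher (red, to the right) or lower (blue, to the left) in pregnant glands. The dashed lines mark the shares over all genes tested, 6.45% higher and 8.26% lower, and the number of tested members is in brackets.

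Clock genes were called in both directions, 2 higher and 3 lower of 21 (median -0.08), which became 1, 1, 2 and 1 calls with 1 array left out. Dbp, an output of the clock, read 945 (pregnant control), 379 (pregnant mutant), 2318 (virgin control) and 1618 (virgin mutant). The pregnant mutant was lowest and both virgin arrays were above both pregnant arrays, at -1.60 ± 0.26 (limma adjusted p = 0.00916). Nr1d2, a repressor in the clock, read 3644 and 1784 in pregnant glands and 7831 and 5865 in virgin glands, at -1.39 ± 0.25 (limma adjusted p = 0.0134), and Cry1, another repressor, moved the other way, 709.6 and 1266 in pregnant glands and 255 and 475 in virgin glands, at 1.32 ± 0.32 (limma adjusted p = 0.0349). The core activator Arntl did not pass at 0.79 ± 0.25 (limma adjusted p = 0.0717). No source used here gives the time of day of collection. Immediate early genes, which respond within minutes to stimuli and handling, had 2 of 31 higher and 4 lower (median -0.62), which became 0, 2, 1 and 4 calls. Egr1 read 1102 and 916 in pregnant glands and 2420.5 and 2638 in virgin glands, at -1.29 ± 0.21 (limma adjusted p = 0.0103), and Klf4 489 and 854 in pregnant glands and 2244 and 1505 in virgin glands, at -1.43 ± 0.33 (limma adjusted p = 0.0282), while Fos and Jun did not pass at -0.62 ± 0.20 and 0.84 ± 0.31. Nr1d2, Egr1, Cry1 and Klf4 lost the call without the pregnant control (limma adjusted p = 0.075 to 0.22), Dbp, Egr1, Nr1d2 and Cry1 without the pregnant mutant (0.051 to 0.2). Klf4 and Cry1 lost it without the virgin control (0.24 and 0.26), Dbp, Cry1, Egr1 and Nr1d2 without the virgin mutant (0.053 to 0.077). Klf4 and Cry1 lost the call after quantile normalization (limma adjusted p = 0.054 and 0.064), Cry1 with no filter on dim genes (0.058) and Klf4 and Nr1d2 with the mean of probe sets (0.11 and 0.69). Dbp and Nr1d2 lost the call without the genotype term (0.056 and 0.067) and Cry1 with spike-in scaling (0.05).

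The 27 heat shock genes had 2 called higher, Hspb6 and Hspb7 at 2.59 ± 0.29 (limma adjusted p = 0.00314, at least 1.78-fold higher), both small heat shock proteins of muscle, beside the muscle list given above. Their list's median of 0.09 turned to -0.08 after median centring and -0.44 with spike-in scaling, and the inducible genes Hspa1b and Hsph1 did not pass, at 0.17 ± 0.33 and -0.30 ± 0.20. Of 40 skin and hair keratinocyte genes on the array, 31 lay under the floor on all 4 arrays and 11 were tested. Of those 11, 1 rose, Tgm1, an enzyme that cross-links the outer skin. It went from 119.8 and 92.3 to 518 and 347, at 1.60 ± 0.36 (limma adjusted p = 0.0259, at least 1.60-fold higher). The defining skin genes Krt10 and Lor did not pass, at 0.24 ± 0.27 and 0.44 ± 0.34. These values stand beside that of the agouti gene, which is made in skin, and the part of skin in it was not tested. The list's median of 0.18 turned to -0.36 with spike-in scaling. Homeobox genes were called in both directions, 3 higher and 3 lower of 18 (median -0.14), which became 0, 4, 0 and 4 calls with 1 array left out. Hoxc8 read 254 (pregnant control), 307 (pregnant mutant), 1837 (virgin control) and 954 (virgin mutant). Both virgin arrays were far above the pregnant arrays, at -2.06 ± 0.31 (limma adjusted p = 0.00752). Hoxa9 read 236 and 231 in pregnant glands and 1097 and 856 in virgin glands, at -1.84 ± 0.31 (limma adjusted p = 0.0105, at least 3.65-fold lower), while Hoxa3, of the same cluster, and Irx3 had 1.89 ± 0.28 (limma adjusted p = 0.00672, at least 2.23-fold higher) and 1.64 ± 0.23 (limma adjusted p = 0.00591). Hspb7 was also called with each of the 4 arrays left out in turn. Irx3, Hoxc8, Hoxa3, Tgm1 and Hoxa9 lost the call without the pregnant control (limma adjusted p = 0.057 to 0.11), Tgm1 without the pregnant mutant (0.13). Irx3, Hoxa3, Hoxc8, Hoxa9 and Tgm1 lost it without the virgin control (0.059 to 0.21), Hoxa9 without the virgin mutant (0.077). Tgm1 lost the call after quantile normalization (limma adjusted p = 0.069), Hoxa9 with the probe set of the highest median (0.19) and Tgm1 without the genotype term (0.0502).

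Lysosome, autophagy and cell death genes had 5 of 41 higher and 5 lower (median -0.07). The 10 calls became 1, 4, 0 and 3 with 1 array left out. Bcl2l11 (Bim), which promotes cell death, rose from 379 and 397 to 1327 and 987, at 1.44 ± 0.21 (limma adjusted p = 0.00672), with 1 of 3 bright probe sets turned the other way. Bcl2, which protects from it, had -1.28 ± 0.26 (limma adjusted p = 0.0197). Ctsd and Map1lc3b, a lysosomal protease and an autophagy marker, did not pass, at 0.06 ± 0.21 and 0.09 ± 0.21. Of 42 antioxidant and detoxification genes 7 fell and 1 rose (median -0.11), and the 8 calls became 1, 3, 0 and 2. Cyp2e1, a cytochrome of fat and liver, read 3879.7 (pregnant control), 6801 (pregnant mutant), 20772 (virgin control) and 27463 (virgin mutant). Both virgin signals were several times either pregnant signal, at -2.21 ± 0.43 (limma adjusted p = 0.0175). Sod1, the cytosolic superoxide dismutase, read 7126 and 8427 in pregnant glands and 17272 and 14445 in virgin glands, at -1.02 ± 0.21 (limma adjusted p = 0.0193). Nqo1 and Mt1, which respond to oxidants and metals, did not pass, at 0.14 ± 0.29 and 0.25 ± 0.37. Bcl2l11, Cyp2e1, Sod1 and Bcl2 lost the call without the pregnant control (limma adjusted p = 0.071 to 0.18), Cyp2e1, Bcl2l11, Bcl2 and Sod1 without the virgin control (0.062 to 0.18). Sod1, Cyp2e1 and Bcl2 lost it without the virgin mutant (0.055 to 0.11). Sod1 lost the call with the mean of probe sets (limma adjusted p = 0.34).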

How the data were processed

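Expression was measured on mouse 3′ expression arrays. The deposited values are MAS5 signal intensities on a linear scale, 1 per probe set, per the submitters' processing notes, which give no MAS5 version. The deposited arrays share a 2%-trimmed mean of 500, so they were scaled to a common level by the authors. No detection calls were used here, and the number of arrays limits the precision.

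Values were turned into log2(signal + 52.1), 52.1 being the 25th percentile of all values. The array has 45101 probe sets, and only the 34945 with a single gene symbol were used (932 have several, 9160 none here). These cover 18193 genes, of which 18031 matched RefSeq's GRCm38.p6 table by gene ID, the source of coordinates and promoters. For each gene the probe set of highest mean stood for it, with cross-hybridising ones used as a last resort. Genes whose mean lay below 7.715, the median over probe sets, were left untested, which kept 11495. The p53 gene itself is not analysed here.

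All 6 arrays were fitted in limma 3.58.1 (R 4.3.3) with stage and genotype as terms, lmFit and eBayes with a variance trend, 2 residual and 5.58 prior degrees of freedom. Benjamini-Hochberg adjustment ran over all genes tested, with calls at 0.05. Within a stage the deviations of both arrays from their genotype's mean had correlations over genes of 0.584 (pregnant) and 0.857 (virgin). The labels give no further pairing of mice across stages than genotype.

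Genes named are the 15 highest and 15 lowest ratios among called genes outside the milk, muscle and lymphocyte lists, members of each list marked in it as key, and up to 4 called members of each list with the smallest p, some left out for brevity. Krt8, C1qb, C1qc, Calr, Hsp90b1 and Brca1 were named in addition. The comparison, its 50 gene lists and the rule were chosen with earlier results of these data known. Alternatives were quantile normalization, median centring, other pseudocounts (14.9 and 168.7) and filters, other choices of probe set, no variance trend, no genotype term, the 4 arrays alone and leaving out each array. Scaling to the spike-in RNAs was added after seeing the data. Code was tested on simulated data. Figures were drawn with matplotlib 3.10.9 and tables made with pandas 2.3.3.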

Additional observations from a re-analysis of the deposited data

Results flagged for a closer look

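Some results had opposite signs in the controls and the mutants. The comparison holds 1 pair of arrays per genotype, so the difference was not tested in any of them, and the minimum size of 0.25 log2 units on each side was chosen after seeing the data. The median of the mitosis genes was 0.59 between the controls and -0.46 between the mutants, and the marker of cycling cells Mki67 had 0.62 between the controls and -0.42 between the mutants. The basal keratin gene Krt14 had 1.02 between the controls and -0.55 between the mutants. Wnt4, a factor that hormone-sensing cells send out, had 0.37 between the controls and -0.27 between the mutants. The lipid regulator Srebf1 had -0.27 between the controls and 1.04 between the mutants, and the hexokinase gene Hk2 -1.05 and 0.42. Kdelr3, a receptor that returns proteins to the ER, had -0.59 between the controls and 0.44 between the mutants, with its virgin control at 511 and its virgin mutant at 143.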

How the results depend on the processing

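The count of 1690 called genes became 2759 on the 4 arrays alone and 4318 with spike-in scaling of those 4, which was chosen after seeing the data, and 304 to 825 with 1 array left out. The 741 higher became 1116 on the 4 arrays, 357 with their spike-in scaling and 193 to 437 with 1 array left out. The 949 lower became 607 after quantile normalization, 501 with the mean of probe sets, 1643 on the 4 arrays, 3961 with their spike-in scaling and 102 to 393 with 1 array left out. The other alternatives kept the total between 1136 and 1928. Without the genotype term, the fit with no pairing of arrays by genotype, 1893 genes passed, 802 higher and 1091 lower. Of the 1690, 60 had the other sign with the mean of probe sets, 11 with the probe set of the highest median, 2 after quantile normalization and none elsewhere. With 1 array left out, the separation of the called genes' arrays largely fixed the sign beforehand.

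List medians and named genes that changed sign were as follows. After median centring Jak-Stat5 had -0.025, ribosome biogenesis -0.116 and heat shock -0.082. With a filter at the 75th percentile skin had -0.216, heat shock -0.0215 and Hox genes 1.21. With the mean of probe sets myoepithelial genes had 0.064, lysosome genes 0.057, Tgfbr3 0.12, Timp2 0.51 and Rgs5 0.18, and with the probe set of the highest median Pdk1 had -0.82. Spike-in scaling of the 4 arrays gave Jak-Stat5 -0.39, junctions -0.24, sterol synthesis -0.31, ion transport -0.20, ER -0.34, vesicles -0.28, tRNA synthetases -0.21, ribosome biogenesis -0.48, brown fat -0.11, skin -0.36 and heat shock -0.44. With 1 array left out, Jak-Stat5 ran from -0.145 to 0.214, myoepithelial genes from -0.325 to 0.0498, junctions from -0.00091 to 0.501, sterol synthesis from -0.0744 to 0.490, ribosome biogenesis from -0.0357 to 0.157, S phase from -0.345 to 0.026, Schwann cell genes from -0.282 to 0.123, clock genes from -0.303 to 0.0631, heat shock from -0.125 to 0.214 and lysosome genes from -0.135 to 0.0184. The cause of these changes was not tested.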

Other observations

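Some called genes lie side by side in the genome. Taking the tested genes in the order of their GRCm38 positions, 28 runs of at least 3 neighbours were called in the same direction, and 5 of them held 4 genes. These runs were looked at after the values were seen, and how many arise by position alone was not tested. Psmd8, Kcnk6, Yif1b and Spint2 were higher at chr7:29174187-29282059. Ephx2, Ptk2b, Trim35 and Dpysl2 were lower at chr14:66084372-66911041, Sult1a1, Bola2, Coro1a and Gdpd3 at chr7:126672865-126775645, and Armcx2, Zmat1, Gprasp1 and Bhlhb9 at chrX:134804142-135891081. The fifth run was the fast myosin cluster at chr11:67171027-67260447 with Myh2, Myh1, Myhas and Myh4, all higher. Among the runs of 3, Duoxa1, Duox1 and Shf were higher, the first pair of which make hydrogen peroxide at epithelial surfaces, and Gbp7, Gbp3 and Gbp2b, guanylate-binding proteins induced by interferon, were lower.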
